A study of Mus musculus with 2 samples.

Results

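Classical monocytes with high Ly6c2 and low interferon-response RNA were 399 of 2847 filtered cells from the synovium (the lining tissue) of mouse ankle joints. They made up 82 of 1637 cells at steady state (5.01%, exact Clopper-Pearson 95% interval 4 to 6.18%) and 317 of 1210 cells 7 days after clodronate liposomes (26.2%, 23.7 to 28.8%). A cell belonged when it held at least 5 UMIs (counted RNA molecules) of Ly6c2 and stayed below 6 limits: 4 UMIs for the Ly6C-low monocyte genes Treml4, Ace, Adgre4 and Eno3 summed, 10 for the class II genes H2-Aa, H2-Ab1 and H2-Eb1, 100 for S100a8, 20 for the granule genes Elane, Mpo and Prtn3, 3 for the division genes Top2a and Mki67, and 10 for the interferon-response genes Isg15, Ifit1, Ifit2, Ifit3, Rsad2 and Cxcl10. The cells were thus chosen by their UMI counts of these genes, so the levels of those genes are a description only. Cells were first required to have at least 500 UMIs, 200 genes and at most 10% mitochondrial UMIs.

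Both groups were bone marrow chimeras in which CD45.2 B6 hosts had received CD45.1 B6 marrow with the ankle shielded from irradiation, so host cells of the joint remain possible beside donor-derived ones. The steady-state animals were untreated, and the day 7 animals had received 200 µL of clodronate liposomes behind the eye, an agent that kills phagocytes which engulf it. Live CD45+CD11b+ cells lacking surface Ly6G, SiglecF, CD64, MHCII, Ly6C and CD177 had been sorted and profiled by CITE-seq, which counts RNA and antibody-linked barcodes in the same cell. Each group was 1 library, the age and number of its animals were not given, and treatment, library and animals cannot be told apart. No test between the groups was possible, and all intervals cover counting error only.

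Classical monocytes are made in bone marrow, carry Ly6C and the chemokine receptor CCR2, and circulate before they enter tissues. There they can become macrophages or dendritic-like cells, and in blood they also give rise to Ly6C-low monocytes, which patrol vessel walls. In joints they are studied as a source of new macrophages.

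The members had a median of 9419.5 UMIs and 2652 genes per cell at steady state and 9250 UMIs and 2773 genes at day 7, so depth per cell was close in the 2 libraries. Summed over members, the steady-state library gave 804293 UMIs and the day 7 library 2967778. No cell barcode was shared between libraries. Scrublet called no member a doublet, but it called few cells at all: 7 of 1637 filtered cells at steady state and 10 of 1210 at day 7. The other filtered cells differed far more between libraries: macrophage-type cells with at least 30 C1q UMIs (C1qa, C1qb and C1qc summed) were 797 of 1637 at steady state and 119 of 1210 at day 7. Neutrophil markers summed to 2409 counts per 1000000 UMIs (CPM) in the other cells at steady state and 74410 at day 7.

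At steady state 164 cells had at least 5 Ly6c2 UMIs. Beside the 82 members, 26 of these failed only the class II limit, 15 only the Ly6C-low limit, 12 only the division limit and 8 only the interferon limit, and 21 failed several. At day 7 there were 594 such cells. Beside the 317 members, 64 failed only the division limit, 38 only the class II limit, 37 only the Ly6C-low limit, 18 only S100a8, 9 only the interferon limit and 3 only the granule limit, and 108 failed several. The 21 steady-state cells and 45 day 7 cells just outside the threshold, with 3 or 4 Ly6c2 UMIs, had 1462 and 1006 CPM of Ccr2. The 15 and 42 members just inside it, with 5 or 6 UMIs, had 1035 and 1119 CPM. The Vcan level was 42.5 CPM just outside and 120 CPM just inside at steady state, and 273 and 245 CPM at day 7.

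Markers of the label were measured next. Ly6c2 encodes a small GPI-anchored surface antigen, at chr15:75108161-75112066 of GRCm38.p6 (mm10). Its median was 11 UMIs per member at steady state (range 5 to 41) and 13 at day 7 (range 5 to 84). Reads of its near-identical neighbour Ly6c1 can be misassigned. The members held 0 Ly6c1 UMIs at steady state and 22 at day 7, of which 16 were in 1 cell.

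Thbs1 (chr2:118111876-118127133), which encodes the matrix glycoprotein thrombospondin-1, had a median of 7.5 UMIs at steady state and 17 at day 7, and 62 of 82 and 270 of 317 members held at least 1 UMI. Ms4a4c (chr19:11404717-11427246), of a family of tetraspanning membrane proteins, had medians of 4 and 3 UMIs. Osm (chr11:4236785-4241026), the cytokine oncostatin M, had medians of 2 and 1. All 3 genes were higher in members than in the other cells of either library: 1380 against 134 CPM and 2629 against 1006 CPM for Thbs1, 487 against 59.5 and 340 against 136 for Ms4a4c, and 348 against 44.4 and 426 against 194 for Osm.

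Vcan and F5 did not mark all members. F5 (chr1:164151835-164220277), coagulation factor V, was seen in 33 of 82 members at steady state and 178 of 317 at day 7. Its level was 58.4 CPM against 8.80 CPM in other cells at steady state, and 139 against 63.7 CPM at day 7. Vcan (chr13:89655309-89743027), the proteoglycan versican, was seen in 18 of 82 members at steady state and 201 of 317 at day 7. Its steady-state level in members, 58.4 CPM, lay below that of the other cells (125 CPM) and of macrophage-type cells (195 CPM). At steady state the data thus go against Vcan as a marker of this group among all filtered cells. Among monocytes, Vcan was 17.4 CPM in the steady-state Ly6C-low group and 36.0 CPM in the transitional group described further on. At day 7 it was 309 CPM in members, 124 CPM in other cells and 313 CPM in macrophage-type cells.

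**Figure D1:**
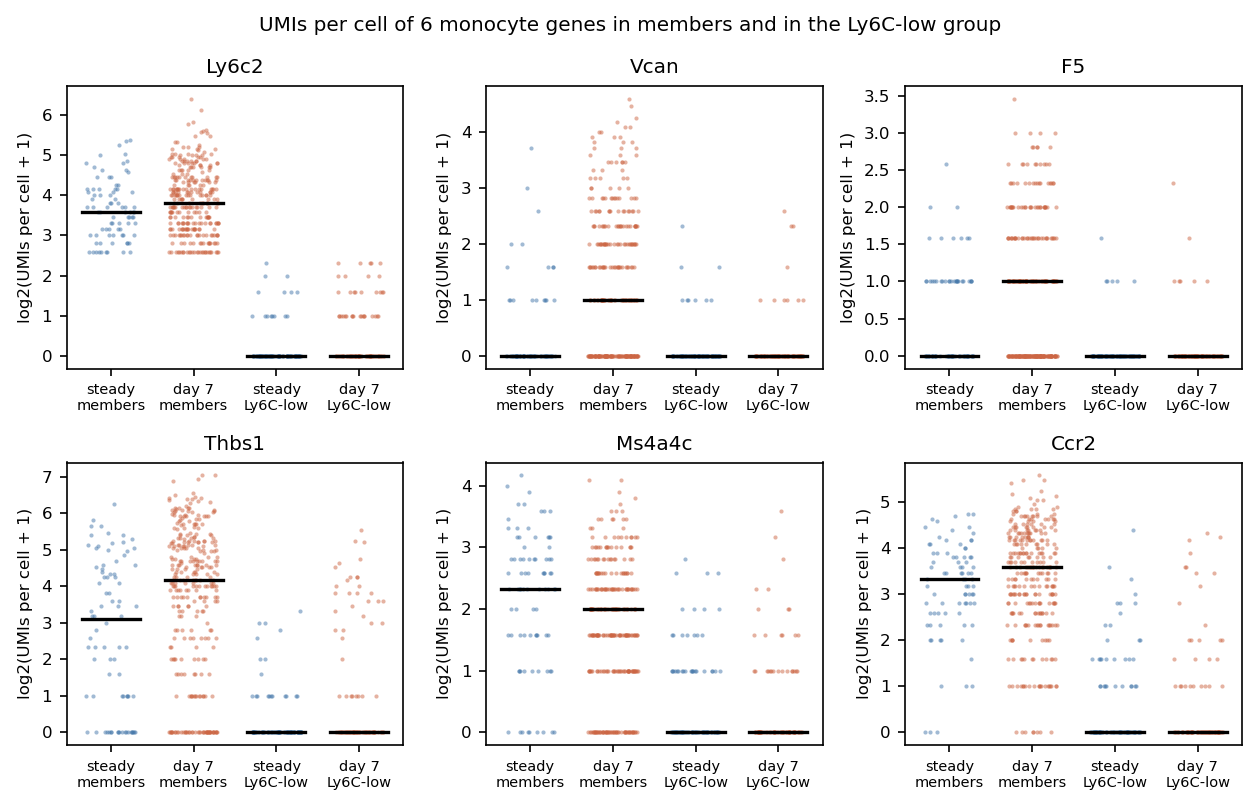
UMIs per cell on a log2(UMIs + 1) axis for 6 monocyte genes; each point is a cell, the black line is the median, and columns are members and the Ly6C-low group in the steady-state and day 7 libraries. Vcan has a median of 0 UMIs in steady-state members and 1 UMI in day 7 members, while Ccr2 has medians of 9 and 11 UMIs.

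Over the full list of 15 classical monocyte genes, 13 were at least 2-fold higher in members than in other cells at steady state and 1, Vcan, was at least 2-fold lower. At day 7, 10 were at least 2-fold higher. Among all genes compared (at least 20 CPM in either group), 6.81% of 6266 were at least 2-fold higher in members at steady state and 19.8% were lower. At day 7 these shares were 1.62% and 8.22% of 6067. The rule itself separates these cells, so the counts describe the group and test nothing. Ccr2, the receptor for the chemokine CCL2, was 1015 against 272 CPM at steady state and 1308 against 480 CPM at day 7. Fn1, fibronectin, was 1528 against 1684 CPM at steady state, a log2 ratio of -0.14, and 2566 against 1136 CPM at day 7.

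Of 5562 genes compared in both libraries, 68 were at least 2-fold higher in members than in other cells in both, and 246 were lower in both. Those highest by the smaller interval bound of both libraries included Sirpb1c, of the signal-regulatory family, with log2 ratios of 2.45 at steady state and 1.56 at day 7. Ccr2 (1.90 and 1.45) and Thbs1 (3.36 and 1.39) were also among them. Lyz2, lysozyme, had ratios of 1.67 and 1.16, and Ifitm3, an interferon-inducible transmembrane protein, 2.24 and 1.16. Ms4a4c, Ms4a8a, Arhgef37, AI839979 and Slfn5 were named by the same rule. Lowest in members were the tissue macrophage genes Lyve1, Fxyd2, Vsig4, C1qa, Pf4, Aqp1 and Folr2, and the neutrophil gene S100a9. Lyve1, a hyaluronan receptor, was 7.46 CPM in members and 1867 CPM in other cells at steady state, and 2.02 and 416 CPM at day 7. C1qa, a complement subunit, was 28.6 against 2899 CPM and 4.38 against 431 CPM.

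Although interferon-low by rule, the members held more of most interferon-stimulated transcripts than the other cells. Of 21 listed genes compared at steady state, 20 were higher in members and 14 at least 2-fold higher, with a median log2 ratio of 1.49; at day 7, 18 of 20 were higher, 8 at least 2-fold, with a median of 0.92. The median over all genes compared was -0.21 at steady state and 0.04 at day 7. Ifitm3 was 6357 against 1345 CPM and 4305 against 1927 CPM. Irf7, a transcription factor of the interferon response, was 124 against 35.3 CPM and 74.1 against 34.9 CPM. Cxcl10, a chemokine limited by the rule, was the gene at least 2-fold lower in both libraries, at 4.97 against 34.2 CPM and 4.38 against 34.8 CPM.

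Markers of other cell types were summed in members. The 11 macrophage markers summed to 136 CPM at steady state and 55.3 CPM at day 7, against 23915 and 19733 CPM in macrophage-type cells, and Timd4 was at 0 in both libraries. The 10 neutrophil markers summed to 194 and 714 CPM, the 8 cDC2 markers to 806 and 628 CPM and the 7 fibroblast markers to 9.95 and 90.3 CPM. In the day 7 library 2 members held at least 10 UMIs of Col1a1, Col1a2, Col3a1 and Dcn summed, and 240 of the 265 such UMIs lay in 1 of them. One further day 7 member held 39 C1q UMIs of the 74 in all day 7 members. No steady-state member reached either level.

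Antibody-derived counts came from 92 barcodes of 15 bases each. The barcodes of 8 antibodies used in the surface results are given as deposited, written 5′ to 3′ in lower case. No part is marked, since the whole run identifies the antibody. Those of CD102, CD88, FrB, CD80 and CD86, also reported below, are not printed.
Ly6C: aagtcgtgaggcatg
CD36: tttgccgctacgaca
CD61: ttctttacccgcctg
CD43: ttggagggttgtgct
CD11a: agagtctccctttag
CD11b: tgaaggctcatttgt
CD45.1: cctatggacttggac
CD45.2: caccgtcattcaacc
Any pair of these 8 differed at 9 or more positions, and CD45.1 and CD45.2 at 11.

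Surface Ly6C was readily counted on members although the sort had been gated on cells lacking it. The median was 58 antibody counts at steady state (interquartile range 38.2 to 81.0) and 55 at day 7 (36 to 84), against 2 and 17 in the other cells and 1 and 3 in macrophage-type cells. Every steady-state member held at least 8 Ly6C counts, and the lowest day 7 member held 0. The 2 medians differed by less than the interquartile ranges. Total antibody counts per member were lower at day 7, with medians of 756 and 504. Per 10000 antibody counts the Ly6C medians were 734 at steady state and 1139 at day 7, so the direction turned with the scale. Surface Ly6C was not particular to members among the monocyte groups described further on. At steady state its median was 105 counts in the transitional group, 43 in the interferon-high group and 4 in the Ly6C-low group. Per 10000 antibody counts these medians were 465, 520 and 39.8.

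CD36, a scavenger and fatty acid receptor, showed opposite patterns at the surface and in RNA. Members carried a median of 15.5 CD36 antibody counts at steady state and 9 at day 7, against 1 and 2 in the Ly6C-low group and 0 in macrophage-type cells of both libraries. Cd36 RNA was 16.2 and 4.04 CPM in members, 343 and 138 CPM in the Ly6C-low group, and 679 and 1147 CPM in macrophage-type cells. Only 13 and 12 Cd36 UMIs were counted in all members of either library. Among these 3 groups, the one with the most antibody had the least RNA in both libraries. The small transitional group described further on, with more Ly6C-low transcripts, had CD36 medians of 20 and 8 counts and 108 and 56.9 CPM of Cd36. CD61, integrin beta 3, followed CD36 at the surface, with medians of 14 and 5 counts in members, 7 and 3 in the Ly6C-low group and 0 and 1 in macrophage-type cells. The platelet transcripts Ppbp and Itga2b were at 0 UMIs in members of both libraries. The erythroid transcripts Hbb-bs (10 and 13 UMIs) and Hba-a1 (6 and 3) gave 16 UMIs in all in each library.

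By counts per cell, the CD43 and CD11a medians of members lay between those of the Ly6C-low and macrophage-type cells. CD43, a sialylated mucin, had medians of 142 and 107 counts in members, 272 and 129 in Ly6C-low cells and 37 and 28 in macrophage-type cells. Per 10000 antibody counts the order of members and Ly6C-low cells turned for CD43 at day 7, with medians of 2184 and 2129. CD11a, an integrin subunit of LFA-1, had medians of 54.5 and 25 counts in members, 120.5 and 77 in Ly6C-low cells and 1 in macrophage-type cells of both libraries. Its RNA, Itgal, was 101 and 164 CPM in members and 590 and 1225 CPM in Ly6C-low cells, the same order as the antibody. CD11b, the integrin used for the sort, had medians of 300.5 and 117 counts in members, while its RNA Itgam was 290 and 464 CPM. The other cells also had fewer CD11b counts at day 7, with medians of 366 and 114. CD102, an adhesion ligand for LFA-1, had medians of 19.5 and 12 counts against 2 and 8 in other cells. It was not particular to members, with steady-state medians of 26 in the transitional group and 15 in the Ly6C-low group. CD88, the C5a receptor, had a median of 1.5 in members and 21 in other cells at steady state. The folate receptor antibody FrB (4 and 22) and the co-stimulatory ligands CD80 (2 and 12) and CD86 (5 and 22) were lower in members there too. The steady-state Ly6C-low group was near the members for all 4, with medians of 4 for CD88, 4 for FrB, 1 for CD80 and 3 for CD86.

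**Figure D2:**
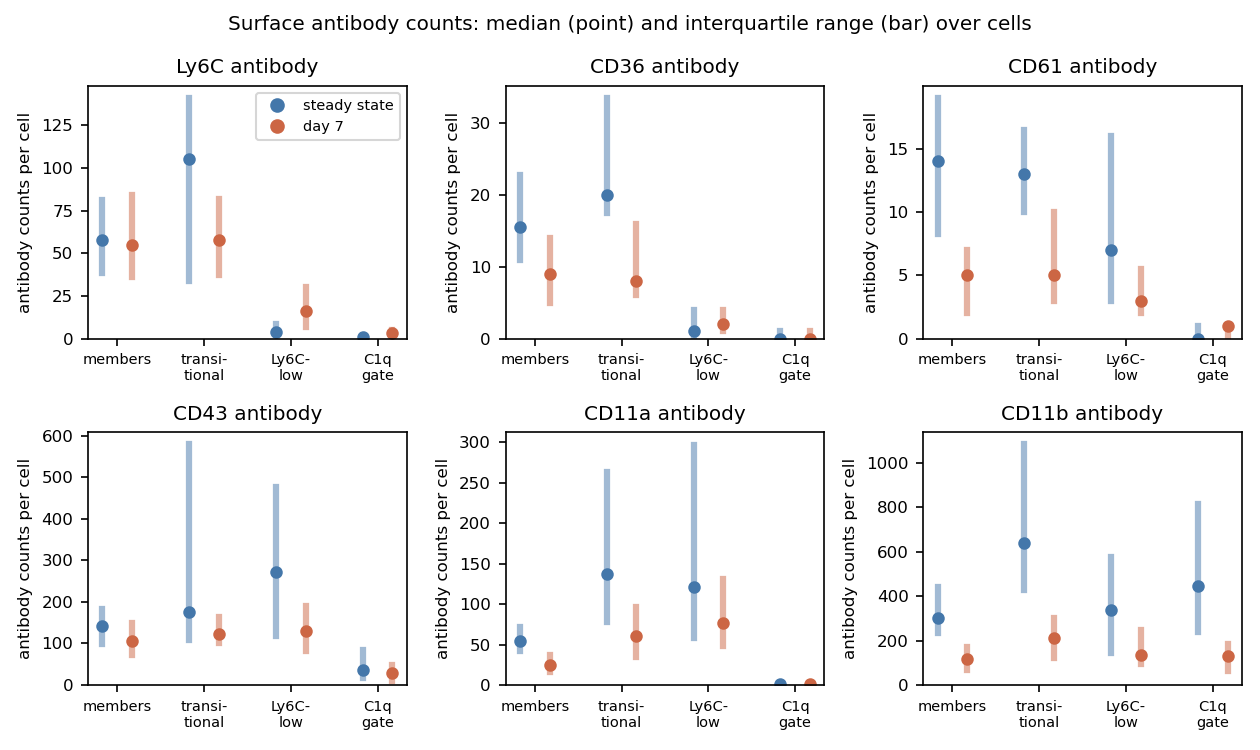
Surface antibody counts per cell for 6 antigens; points are medians and bars interquartile ranges over cells, in members, the transitional group, the Ly6C-low group and cells with at least 30 C1q UMIs, for the steady-state (blue) and day 7 (orange) libraries. Ly6C and CD36 counts are high in members and transitional cells (CD36 medians 15.5 and 20 at steady state), and CD11a counts are higher in Ly6C-low cells.

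The CD45 alleles separated donor from host cells. A cell was called host-type when log2 of (CD45.2 + 1) over (CD45.1 + 1) antibody counts was above 1, donor-type below -1, and otherwise unassigned. At steady state 77 members were donor-type, 1 was host-type and 4 were unassigned, so 1.28% of assigned members were host-type (exact interval 0.0325 to 6.94%). At day 7 there were 257 donor-type, 17 host-type and 43 unassigned members, 6.20% host-type (3.66 to 9.75%). The 2 intervals overlap. Macrophage-type cells were 87.5% host-type at steady state and 93.2% at day 7. The CD45.1 median in members was 27 counts at steady state and 9 at day 7, a ratio of 0.333, or 0.551 per 10000 antibody counts, and CD45.2 had a median of 1 in both.

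The 17 host-type members at day 7 had a CD45.2 median of 24 counts and a CD45.1 median of 2. They carried classical monocyte transcripts: 1554 CPM of Ly6c2, 1684 CPM of Ccr2, 2820 CPM of Fn1, 407 CPM of Vcan and 243 CPM of F5, and C1qa and Vsig4 were at 0 UMIs. Nr4a1, a nuclear receptor needed by Ly6C-low monocytes, was 175 CPM in them and 482 CPM in all day 7 members.

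The 3 monocyte groups nearest to the members by rule were small: a transitional group that met the Ly6c2 limit and exceeded the Ly6C-low limit (15 and 37 cells), a Ly6C-low group (100 and 95 cells) and an interferon-high group (8 and 9 cells). Members were at least 2-fold higher than the Ly6C-low group in both libraries for 155 genes and lower for 203 of 5272 compared. At steady state 6.93% of genes compared were higher and 16.4% lower, and the shares at day 7 were 7% and 6.75%. Ccr1, a chemokine receptor, was 148 against 12.4 CPM at steady state and 240 against 16.4 CPM at day 7. F13a1, the coagulation factor XIII A chain, was 711 against 99.5 CPM and 999 against 75.9 CPM, and the integrin gene Itga1 was 37.3 CPM against 0 and 71.1 against 5.95 CPM. Lower in members were Slc12a2, an ion cotransporter (1.24 against 182 CPM and 1.01 against 118 CPM), Fabp4, a fatty acid binding protein (2.49 against 238 and 4.38 against 180 CPM), Cd300e, Cd36 and Lilra5. In the steady-state Ly6C-low group 15 of 100 cells held at least 10 fibroblast UMIs, against 0 of 95 at day 7. Without these cells the Ccr2 log2 ratio at steady state was 2.49 in place of 2.81.

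Against the transitional group, members had more Ccl2, the ligand of CCR2 (358 against 59.9 CPM at steady state and 264 against 47.4 CPM at day 7), and more Ccr1, Fn1, F13a1 and Cd14. Slc12a2, Tcf7l2, Havcr2, Cd36 and Lair1 were lower in members. Tcf7l2, a transcription factor of the Wnt pathway, was 3.73 against 53.9 CPM and 13.8 against 130 CPM. With 15 and 37 cells, the transitional values rest on few counts: 9 and 55 Tcf7l2 UMIs. In both libraries 33 genes were at least 2-fold higher in members and 68 lower of 5126. Shares per library were 7.65% higher and 10.6% lower at steady state, and 4.53% and 4.3% at day 7.

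The interferon-high group differed by its rule in interferon genes, and genes outside the rule differed too. Irf7 was 124 CPM in members against 718 CPM at steady state and 74.1 against 456 CPM at day 7. Rtp4 was 42.3 against 429 and 39.8 against 268 CPM, and Usp18, Oasl1 and Ifit1bl1 were also lower in members. Ccr2 was higher in members, at 1015 against 627 and 1308 against 675 CPM, as were Hilpda, Coro1a, Mrpl33 and Ccl6. With 8 and 9 cells, some interferon-high values rest on few counts: 4 and 3 Ifit1bl1 UMIs, and 1 and 0 Hilpda UMIs. Of 5097 genes, 150 were at least 2-fold higher and 141 lower in both libraries, with 10.2% and 15.4% at steady state and 13% and 9.09% at day 7. One of the 8 steady-state interferon-high cells held 36255 UMIs, and the highest C1q sum in that group was 145 UMIs.

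Within the member group, day 7 cells were then set against steady-state cells. Of 5625 genes at 20 CPM or more in either library, 320 (5.69%) were at least 2-fold higher at day 7 and 83 (1.48%) at least 2-fold lower. Of all genes compared 3409 were higher to any extent and 2216 lower, with a median log2 ratio of 0.15, and the list counts and medians that follow are to be read against these. With median-of-ratios scaling, which moved every ratio down by 0.12, 208 were higher and 129 lower, and ratios between 0 and 0.12 take the other sign. The same comparison gave 7.06% higher and 10.4% lower in the other cells, 6.54% and 11% in the Ly6C-low group, 12.7% and 10.3% in the transitional group, and 1.28% and 1.17% in macrophage-type cells. Here and below, the Ly6C-low values include the cells with at least 10 fibroblast UMIs, 15 of 100 at steady state and 0 of 95 at day 7. Ratios of that group between libraries were not repeated without them.

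Vcan had the highest ratio among classical markers. It was 58.4 CPM at steady state and 309 CPM at day 7, a log2 ratio of 2.40 (95% counting interval 1.98 to 2.86). In members thinned to 3000 UMIs each (81 and 308 cells), 11.1% held a Vcan UMI at steady state and 45.13% at day 7. The ratio was 2.35 in the 80 and 294 members with more CD45.1 than CD45.2 antibody counts. In all other filtered cells Vcan was 125 and 124 CPM, a log2 ratio of 0.00, and in the Ly6C-low group 17.4 and 31.3 CPM. The transitional group, nearest to the members by rule, had a ratio close to theirs, at 36.0 and 176 CPM (2.29, 1.10 to 3.78). Macrophage-type cells were at 195 and 313 CPM (0.68, 0.51 to 0.85). Higher Vcan at day 7 was thus not limited to members.

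Of 12 matrix and remodelling genes compared, 10 were higher at day 7 and 2 lower, with a median of 0.51. Vcan and Adam8 were at least 2-fold higher, against 5.69% of all genes. Thbs1 was 1380 and 2629 CPM (log2 ratio 0.93, 0.84 to 1.02), Fn1 1528 and 2566 CPM (0.75, 0.66 to 0.84), and Adam8, a membrane metalloprotease of myeloid cells, 39.8 and 88.3 CPM (1.15, 0.62 to 1.73). Of 7 coagulation genes, 5 were higher and 2 lower, a split near that of all genes, with a median of 0.49. F5 was 58.4 and 139 CPM (1.26, 0.82 to 1.72), Thbd, thrombomodulin, 84.6 and 150 CPM (0.83) and F13a1 711 and 999 CPM (0.49). Plaur, the urokinase receptor, went the other way, at 831 and 584 CPM (-0.51).

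Receptors for chemokines and growth factors were higher for 12 of 14 genes, with a median of 0.36. Cxcr4, the receptor that holds monocytes in marrow, was 138 and 261 CPM (log2 ratio 0.92, 0.63 to 1.22) and Ccr1 148 and 240 CPM (0.70). Fpr2, a formyl peptide receptor, was 24.9 and 52.9 CPM (1.09, 0.41 to 1.84) from 20 and 157 UMIs. Ccr2 differed less, at 1015 and 1308 CPM (0.37). Csf2ra and C5ar1 were the 2 lower genes, at -0.23 and -0.24. Of 12 adhesion genes 7 were higher and 5 lower (median 0.24), with Cd44, the hyaluronan receptor, at 0.83. Among 11 pattern recognition genes 7 were higher and 4 lower (median 0.36): Tlr2 was 213 and 380 CPM (0.84) and Cd14, its co-receptor, 1983 and 1072 CPM (-0.89).

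Immediate early genes, the transcription factors and regulators that cells induce quickly on stimulation, were lower at day 7. Of 17 compared, 14 were lower, 5 at least 2-fold (against 1.48% of all genes), and the median was -0.87. Jun was 632 and 156 CPM (log2 ratio -2.02, -2.21 to -1.84), Jund 1610 and 560 CPM (-1.52), Klf2 854 and 323 CPM (-1.40), Atf3 923 and 362 CPM (-1.35), Ier5 364 and 150 CPM (-1.28) and Fos 2334 and 1277 CPM (-0.87). Egr1, Ier3 and Klf6 were the 3 that were not lower, at 0.05, 0.19 and 0.04; 32 of the 88 day 7 Egr1 UMIs lay in 1 cell, and without the highest cell of each library its ratio was -0.10. The list was also mostly lower in 2 neighbouring monocyte groups: 17 of 17 genes in the Ly6C-low group (median -0.99) and 15 of 17 in the transitional group (median -1.23). The Ly6C-low values include its fibroblast-rich cells, which were counted at steady state only. In all other cells together 16 of 18 were lower (median -0.86). Macrophage-type cells did not share this pattern, with 8 of 17 lower and 9 higher (median 0.02), and Jun was at 508 and 516 CPM in them (0.02). The part of the library as a whole in the members' values was not tested.

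Socs3 and Ccl4 had the lowest ratios. Socs3, a feedback inhibitor of cytokine signalling, was 262 and 34.0 CPM (log2 ratio -2.95, -3.30 to -2.60), with UMIs in 31 of 82 and 53 of 317 members. It was lower in the other cells (309 and 78.0 CPM) and in the Ly6C-low group (343 and 71.4 CPM) too, but was level in macrophage-type cells (301 and 306 CPM, log2 ratio 0.02, -0.15 to 0.19). Ccl4, an inflammatory chemokine, was 642 and 95.4 CPM (-2.75, -2.96 to -2.54), with UMIs in 33 of 82 and 53 of 317 members. One steady-state cell held 128 of the 516 UMIs, and without the highest cell of each library the ratio was -2.60. Here the other cells went the opposite way, at 124 and 283 CPM (1.19), as did the Ly6C-low group at 51.0 and 266 CPM (2.38). The transitional group had the members' direction, at 264 and 78.3 CPM (-1.75, -2.45 to -1.07), and macrophage-type cells were at 109 and 135 CPM (0.31). Ccl3, which lies beside Ccl4, was 220 and 84.6 CPM in members (-1.38, -1.66 to -1.09).

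Among 13 inflammatory cytokine and chemokine genes 9 were lower and 4 higher, with a median of -0.31. Il1b, interleukin-1 beta, was 1141 and 919 CPM (-0.31), Ccl6 2186 and 1376 CPM (-0.67) and Cxcl2 516 and 389 CPM (-0.41). Ccl9 was higher, at 387 and 613 CPM (0.67), as was Osm at 348 and 426 CPM (0.29). Il6, interleukin-6, was counted 6 times in 5 steady-state members and 70 times in 26 day 7 members. Irak3, an inhibitor of Toll-like receptor signalling, was 17.4 and 68.1 CPM (1.97, 1.19 to 2.86). It was also higher at day 7 in the other cells (1.23), the Ly6C-low group (1.29) and macrophage-type cells (0.76). In the transitional group its ratio was 0.04 (-1.06 to 1.26).

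**Figure D3:**
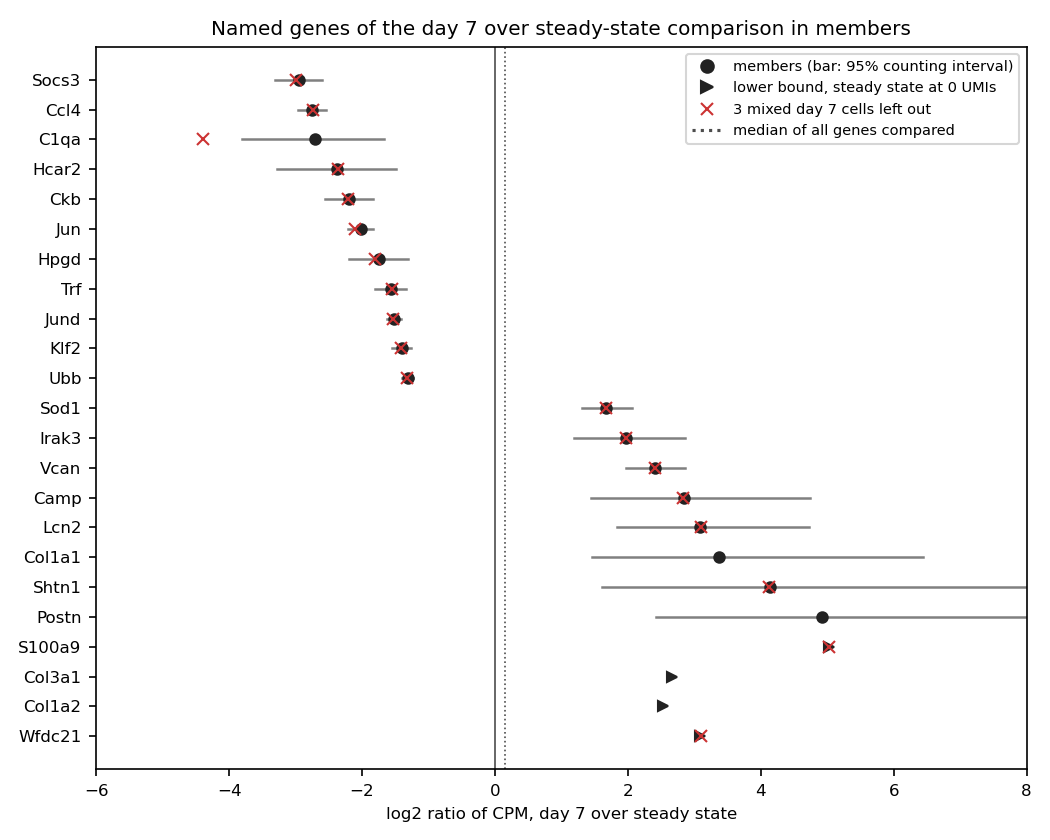
Log2 ratio of CPM in members, day 7 over steady state, for the lowest and highest genes by the interval bound nearest 0. Bars are 95% counting intervals, crosses leave out 3 mixed day 7 cells, and the dotted line is the median of all genes. Triangles, labelled as lower bounds, are ratios with 3 counts in place of 0 steady-state UMIs and are not interval bounds. Vcan (2.40) and Ccl4 (-2.75) keep their place without those cells, and 4 fibroblast genes have no cross because both libraries then hold at most 3 UMIs.

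Antigen presentation and Fc receptor genes were lower at day 7. Of 10 class I genes 8 were lower and 2 higher (median -0.30). H2-D1, a class I heavy chain, was 3287 and 1343 CPM (log2 ratio -1.29, -1.36 to -1.22) and H2-K1 1037 and 650 CPM (-0.67), while Tapbp, the loading factor tapasin, was 155 and 240 CPM (0.62). All 4 class II pathway genes that were compared were lower (median -0.55), among them H2-Ab1, which the rule limits. Of 5 Fc receptor genes 4 were lower (median -0.57), with Fcgrt, the neonatal Fc receptor, at 75.8 and 34.7 CPM (-1.13). The Ly6C-low group had medians of -0.61 for class I and -0.74 for Fc receptors, and 0.13 for class II.

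Interferon-stimulated genes, of which the rule limits Isg15 and Rsad2 among those compared, were lower for 14 of 20 and higher for 6, with a median of -0.31 and 1 gene, Ifi47, at least 2-fold lower (92.0 and 45.8 CPM). Ifitm3 was 6357 and 4305 CPM (-0.56). All 6 MS4A genes compared had negative ratios (median -0.44), from Ms4a4b at -0.04 to Ms4a6b at -0.91. The S100 family, S100a8 and S100a9 included, was higher in 8 of 8, with S100a4 at 1772 and 2619 CPM (0.56) and S100a6 at 4051 and 5021 CPM (0.31).

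Neutrophil genes were counted in more day 7 members. S100a9 had 0 UMIs in all steady-state members and 361 at day 7, in 149 of 317 cells, 95 of them in 1 cell. S100a8, which the rule limits, was seen in 14.6% of members at steady state and 50.5% at day 7. In macrophage-type cells the S100a8 shares were 9.03% and 24.4%, at median depths of 10909 and 8281 UMIs. Camp had 4 and 106 UMIs, Lcn2 5 and 157, and Wfdc21 0 and 94. In the other cells S100a9 was 781 CPM at steady state and 26144 CPM at day 7, and the part of free RNA from those cells in the member values was not tested. Prtn3, a granule gene of immature myeloid cells limited by the rule, was 70.9 and 90.6 CPM.

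C1qa, like S100a9, differed in the other cells in the same direction as in members. It was seen in 22.0% of members at steady state and 1.26% at day 7 (23 and 13 UMIs), at 2899 and 431 CPM in the other cells. The ratio in members was -2.71, and -4.39 without the 3 mixed day 7 cells. The part of free RNA in these values was not tested. Col1a1, Col1a2, Col3a1 and Postn, which had among the highest ratios, held 68 of 76, 57 of 64, 65 of 70 and 99 of 112 day 7 UMIs in their highest cell. Without the mixed cells both libraries were at or under 3 UMIs for all 4, so no ratio is given.

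Metabolic and stress genes differed in both directions. Sod1, a superoxide dismutase, was 82.1 and 262 CPM (log2 ratio 1.67, 1.31 to 2.06). Sod1 was also higher at day 7 in the other cells (0.56), the Ly6C-low group (0.90) and macrophage-type cells (0.58). In the transitional group its ratio was 0.23 (-0.49 to 0.99). Hmox1, heme oxygenase, was 52.2 and 135 CPM in members (1.37, 0.91 to 1.87). Hmox1 belonged to a list of 12 iron, heme and stress genes of which 6 were higher and 6 lower (median 0.08, and -0.04 with median-of-ratios scaling). Vegfa, a vascular growth factor, was 95.7 and 251 CPM (1.39, 1.05 to 1.75), in a glycolysis and hypoxia list with 6 higher and 8 lower (median -0.15). Oxidative phosphorylation genes were higher for 12 of 17, with a median of 0.18, close to that of all genes. Of 19 lysosomal genes 13 were lower and 6 higher (median -0.16), and Lyz2 was 28401 and 16224 CPM (-0.81). Among 10 lipid handling genes 5 were higher and 5 lower: Apoe was 1483 and 668 CPM (-1.15, -1.26 to -1.05), and Abca1, a cholesterol exporter, had 3 and 73 UMIs. Fabp5 had a ratio of -1.40, but 242 of its 350 steady-state UMIs were in 1 cell, and without the highest cell of each library the ratio was 0.24.

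Of 19 monocyte transcription factor genes 10 were higher and 9 lower (median 0.04, and -0.08 with median-of-ratios scaling). Cebpb was 4549 and 2466 CPM (-0.88) and Cebpd 184 and 102 CPM (-0.85). Id2, an inhibitor of basic helix-loop-helix factors, was 111 and 229 CPM (1.05, 0.73 to 1.39) and Bhlhe40 37.3 and 75.1 CPM (1.01). Spi1, which encodes PU.1, was 591 and 443 CPM (-0.41), and Irf8 157 and 137 CPM (-0.20). Nr4a1 was 659 and 482 CPM (-0.45). Of the remaining genes named by their ratios, Shtn1 had 1 and 65 UMIs, and Ubb (polyubiquitin), Trf (transferrin), Ckb, Hpgd and Hcar2 were lower, from -1.31 for Ubb to -2.37 for Hcar2. Ubb, Trf, Ckb and Hpgd had negative ratios in the other cells and the Ly6C-low group too. In macrophage-type cells Ubb was at -1.18, Ckb at -0.53, Hpgd at -0.25 and Trf at 0.18. The transitional group had ratios of -1.23 for Ubb, -2.03 for Trf, -1.60 for Hpgd and -0.67 for Ckb (-1.48 to 0.17). Hcar2 had ratios of 0.28 in the other cells (-0.16 to 0.71) and -1.33 in the Ly6C-low group (-3.42 to 0.40), with intervals that include 0. In the transitional group it had the members' direction, at 47.9 and 2.37 CPM (-4.34, -9.81 to -1.44).

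**Figure D4:**
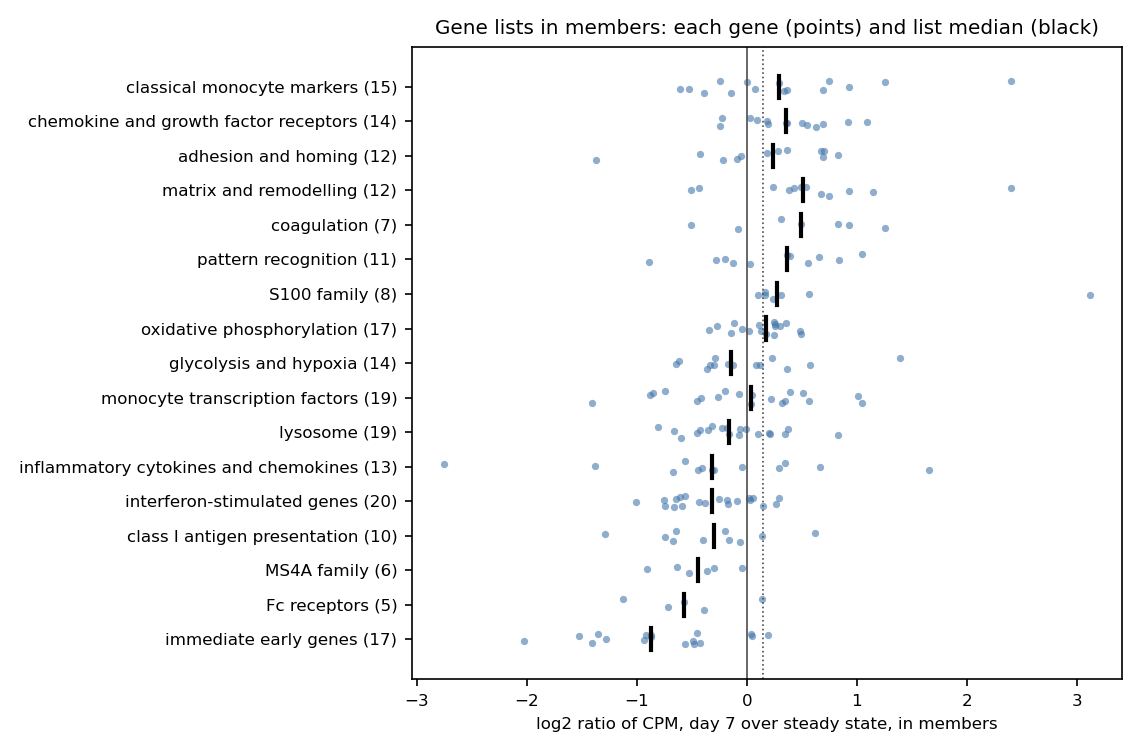
Log2 ratio of CPM in members, day 7 over steady state, by gene list; each point is a gene, the black bar is the list median, the number of genes compared stands in brackets, and the dotted line is the median of all genes (0.15). S100a9, at 0 UMIs at steady state, is not drawn; the immediate early genes have the lowest list median shown (-0.87) and matrix genes the highest (0.51).

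Members also differed among themselves. In cells thinned to 3000 UMIs, 760 genes averaged at least 0.5 UMIs in both libraries, and the variance divided by the mean had a median of 1.16 at steady state and 1.15 at day 7, where counting alone gives 1. It was 2 or more in both libraries for 49 genes. Cxcl2, a neutrophil-attracting chemokine, was seen in 25.9% and 18.5% of thinned members and had ratios of 9.0 and 11.9. Il1b, seen in 60.5% and 55.8%, had ratios of 8.35 and 6.04, and Thbs1, in 65.4% and 81.5%, had 6.29 and 6.90. The other genes with the highest ratios were Fth1, Malat1, Cd74, Apoe and Lyz2. Fth1, ferritin heavy chain, had ratios of 37.2 and 9.95, and its highest steady-state cell held 1109 of 6092 UMIs before thinning. By the same measure Ly6c2, with its lower limit, had ratios of 2.26 and 3.15, and Ms4a4c 1.48 and 1.22.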

How the data were processed

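Raw UMI counts per gene and antibody barcode were deposited by the authors, made with Cell Ranger 6.1.2 on mm10 per the submitters' processing notes, which also name Seurat 4.4.0 without its role. The matrices held 32285 genes and 92 antibodies. Genes were matched by symbol to RefSeq (GRCm38.p6) for positions. From the counts, cells were filtered and grouped as described below, and UMIs were summed over each group and library and divided by the group total (CPM, per 1000000). Ratios carry exact conditional Poisson 95% intervals. These were run on simulated counts that were themselves Poisson draws. That check could not cover the wider spread among cells described above, so intervals of such genes are likely too narrow. A group at 0 UMIs was given 3 counts as its floor. With 1 library per group there was no test. Thinning drew 3000 UMIs per cell with a fixed seed. Doublets were called with Scrublet in scanpy 1.11.5 (scipy 1.17.1, numpy 2.4.6).

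The members and the gene lists were chosen with earlier results of these data known. Named genes were the 12 highest and 12 lowest by the interval bound nearest 0 for day 7 over steady state, the 12 highest and 8 lowest by the smaller bound of both libraries against other cells, 5 in each direction against each neighbouring group, the 8 with the highest variance over mean, and within each list those with the highest CPM or a 2-fold ratio. Ribosomal, mitochondrial, unnamed and rule genes were left out of the ranking. Of 376 listed genes, 2 were not analysed here. C5ar1, Cebpd, Cxcr4, Egr1, Ier3, Irf8, Klf6, Ms4a4b, Spi1, Tapbp and Thbd fall outside this rule and were named after their values were seen, as was CD43 among the antibodies. Some genes that meet the rule are not reported here.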

Additional observations from a re-analysis of the deposited data

How the results depend on the processing

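No paired analysis was possible because each group was 1 library. The share of members was 6.29% at steady state and 29.9% at day 7 with 3 or more Ly6c2 UMIs, 3.05% and 17.5% with 10 or more, and 30% at day 7 with membership by counts scaled to 10000 UMIs per cell. It was higher at day 7 under each. The 320 higher and 83 lower genes at day 7 became 667 and 326 in thinned members, 208 and 129 with median-of-ratios scaling, 95 and 34 at a minimum of 50 CPM (3149 genes), 875 and 295 at 5 CPM (8672 genes), and 143 lower genes with 10 or more Ly6c2 UMIs. Of the 320 and 83, 209 and 59 were shared after thinning. Genes lower in members than in other cells were 559 at steady state and 230 at day 7 at 50 CPM. The Ly6C antibody ratio of medians, day 7 over steady state, was 0.948 and turned to 1.55 per 10000 antibody counts, and CD43 turned to 1.24.

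Over 356 values of the named genes under alternatives, 319 lay within the counting interval, 31 outside it and 6 had the other sign. The 6 were Col1a1, Col3a1 and Col1a2, at -0.048, -1.31 and -1.05 with 10 or more Ly6c2 UMIs and at -0.12, -1.19 and -0.70 with an interferon sum under 5, settings that leave out the cell that held most of their UMIs. Leaving out members rich in fibroblast or macrophage genes, and Ly6C-low cells rich in fibroblast genes, was chosen after seeing the data. With 82 steady-state members, genes under about 20 CPM rest on few UMIs.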

Other observations

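By CD45 allele, 4 of 82 members at steady state and 43 of 317 at day 7 stayed unassigned.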
